A study of Mus musculus with 16 samples.

Results

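The baseline difference between the AIRmax and AIRmin mouse lines was read from 8 of the 16 arrays of the series, the 4 AIRmax control and the 4 AIRmin control footpads of day 0, chosen by their sample labels, and all 19938 genes of the table were compared. AIRmax and AIRmin are outbred lines bred in opposite directions for a maximal or a minimal acute inflammatory reaction, from a founder population made from the inbred strains A, BALB/c, C57BL/6, CBA, DBA2, P, SJL and SWR. The study gives AIRmax the H2b and AIRmin the H2kd haplotype of the major histocompatibility complex (MHC). The labels give an age of 2 to 4 months for the mice of day 0 and of day 160 alike. They do not say when this age was taken. Each group held 2 males and 2 females, AIRmax control on arrays 105 and 106 (males) and 107 and 108 (females), AIRmin control on arrays 113 and 114 (males) and 115 and 116 (females). The other 8 arrays, also 4 of each line, are pristane footpads of day 160. Pristane is a mineral oil that induces arthritis in AIRmax mice. The protocol counts both days from the second pristane injection, and the labels call the day 0 arrays controls without saying whether these mice had been injected. Footpad RNA from whole tissue was hybridized to Affymetrix Mouse Gene 1.0 ST arrays, and each value below is a log2 signal, so that a difference of 1 is a 2-fold difference.

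Each line of a selection experiment carries selected alleles together with founder alleles that became common by chance, so that lines can differ in transcripts of either kind before any treatment. Acute inflammation depends on sentinel receptors, on mediators such as phospholipases and mast cell proteases, and on the granulocytes that marrow supplies. The footpad holds thick cornified skin, muscle, fat, tendon, bone with its marrow and sweat glands, and its resident immune cells are mast cells, macrophages and Langerhans cells.

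The labelled sex and tissue were borne out by the arrays. Xist, the RNA of the inactive X chromosome, read 9.74 to 9.89 in the control females and 3.52 to 4.29 in the control males, so a transcript that is not made still gave a signal above 0. Uty, Kdm5d and Eif2s3y, all 3 on the Y chromosome, read 5.38 to 7.36 in the control males and 2.04 to 3.34 in the control females. Krt9, the keratin of palm and sole skin, read 9.97 to 10.8, Acta1 of skeletal muscle 11.3 to 12.5 and Col1a1 of fibroblasts 11.9 to 12.8 on the 8 arrays, whereas Alb of liver stayed at 3.64 to 4.74 and Ins2 of pancreatic islets at 3.87 to 4.07. Array medians lay between 5.435 and 5.53 over all 16 arrays. Elane, the elastase of neutrophil precursors, ranged from 6.63 on AIRmin array 115 to 11.7 on AIRmax array 108. The array signal has no counted depth, so the number of arrays sets the precision. The study calls the 4 mice of a group biological replicates, and the p values measure the spread between these mice only.

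In control footpads 16 genes differed between the lines by limma at a Benjamini-Hochberg adjusted p under 0.05, which is 0.0802% of the genes tested. Of the 16, 10 were higher in AIRmax (0.0502%), namely Kcnma1, Pla2g2a, 1810037I17Rik, Prkx, Cd300ld, Tlr1, Abhd1, AAdacl4fm3, Zfp830 and Man2a2, and 6 were lower (0.0301%), namely H2-Ea, Tpsab1, Glo1, Cd59a, Gm10590 and Opcml. For all 16 the 4 arrays of one line lay wholly above those of the other, and for 13 the difference was at least 2-fold. Among all genes 2059 had lines without overlap (10.3%), and 262 differed at least 2-fold (1.31%). Before adjustment 3345 genes had a p under 0.05 (16.8%). SAM, a permutation method, called 258 genes (1.29%) at a false discovery rate of 0.05, among them all 16. It also called genes described below that limma did not call. Besides those named with SAM below, they include Ccr3, Cd300c2, Cfi, Clec4b1, Clec7a, Cxcl9, Defb1 and H2-T24. Mmp9, Mmp28, Ngfr, Nr4a1, Pla2g2d, Psmb10, Vcam1 and Vsig4 were also called by SAM. Below, called refers to limma on the 8 arrays unless another fit is named. The median difference over all genes was -0.03 and the median standard deviation (SD) within a line was 0.158.

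**Figure D1:**
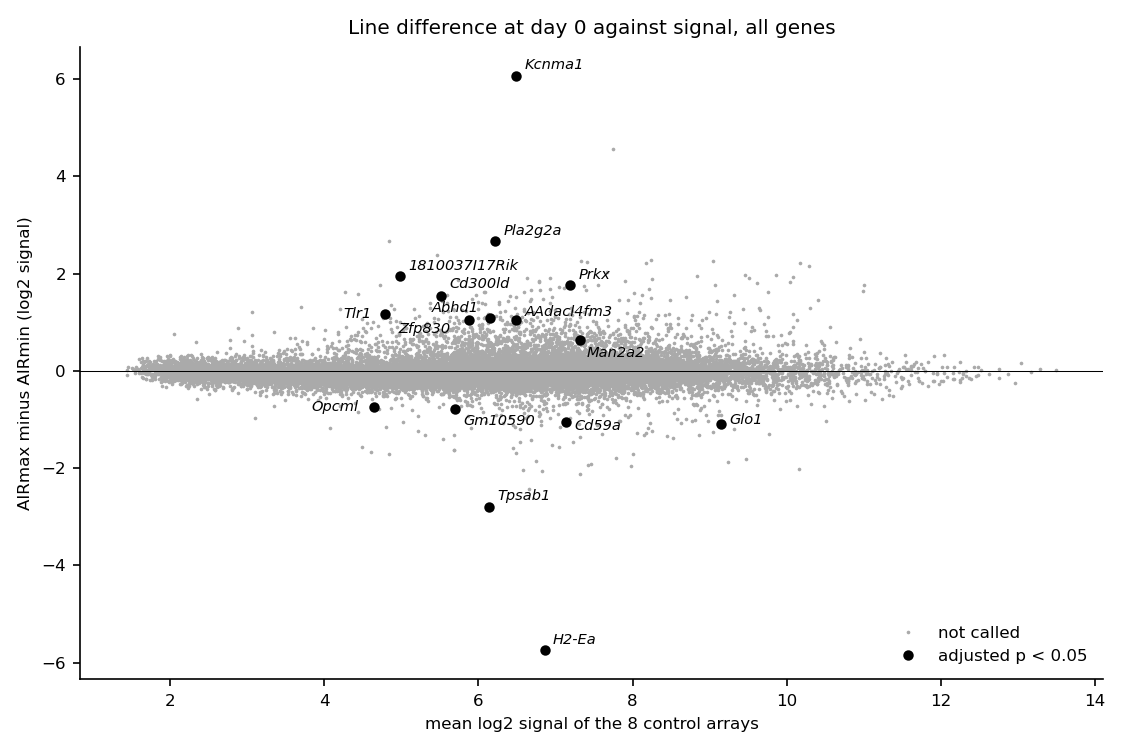
Difference between the lines at day 0 (vertical axis, AIRmax minus AIRmin, log2 signal) against the mean log2 signal of the 8 control arrays (horizontal axis), 1 point per gene. The 16 named black points have an adjusted p under 0.05, with H2-Ea at -5.74 and the probe set annotated as Kcnma1 at 6.07 farthest from 0.

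H2-Ea encodes the alpha chain of the class II molecule I-E, which pairs with the H2-Eb1 chain to present peptides to CD4 T cells. Inbred mice of the b haplotype are known to lack this chain. H2-Ea read 3.83, 4.02, 4.06 and 4.03 on the AIRmax arrays and 9.03, 9.93, 9.76 and 10.20 on the AIRmin arrays (males first in each line, as in every list of values here). It was low on every AIRmax and high on every AIRmin array, with no array between 4.06 and 9.03. The difference was -5.74 with a standard error (SE) of 0.21 (adjusted p = 6.74e-06), and it was -5.56 in males and -5.93 in females. The AIRmax mean of 3.99 was within the range of Xist in males, where no transcript is made, so the size may be a lower bound. The same may hold for the differences of Kcnma1 (as annotated), 1810037I17Rik, Tlr1 and Opcml. Their lower mean was also no higher than the highest Xist signal of males. Background differs between probe sets, with the Y-linked genes at 2.04 to 3.34 in control females, and that of these probe sets was not measured. The arrays read RNA and no genotype was measured here.

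The other class II genes ran the opposite way, and none of them passed limma on the 8 arrays. H2-DMa was called with sex as a covariate and with all 16 arrays in 1 fit, H2-Eb2 in the latter, and SAM called 6 of the 10, H2-Ea among them (1.29% of all genes). Of the 12 genes listed, 10 were measured (H2-DMb1 and H2-DMb2 were not analysed here), 1 was called and 9 had a positive difference, with a median of 0.69. In 7 the AIRmax arrays all lay above the AIRmin arrays, against 5.39% of all genes (4.94% for the opposite order). H2-Ab1, the beta chain of I-A, read 10.40, 10.50, 11.19 and 10.59 in AIRmax and 9.11, 9.79, 9.34 and 9.73 in AIRmin, a difference of 1.18 (adjusted p = 0.0807). H2-Eb1, the partner chain of H2-Ea, read 9.56, 9.79, 10.53 and 9.93 against 8.68, 9.15, 9.21 and 9.46, a difference of 0.83 (adjusted p = 0.191). So the line with little H2-Ea signal did not have less signal of its partner. H2-DMa, which loads peptides, differed by 1.03 (adjusted p = 0.0895), H2-Aa, the alpha chain of I-A, by 0.55 (adjusted p = 0.269), and H2-Oa and H2-Ob, which form the inhibitor of that loading, by 0.62 and 0.83. Cd74, the invariant chain that escorts class II molecules, differed by 0.71 and Ciita, the transactivator of class II genes, by 0.37, both with overlap of 1 AIRmin array. In whole tissue fewer cells of a type and less RNA per cell cannot be told apart, and this holds for each list below.

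The promoters of 2 class II genes beside H2-Ea that did not follow it are shown, since class II genes share promoter elements. These are the 250 bases before the RefSeq start on GRCm38.p6, H2-Aa from chr17:34287824-34288073 on the minus strand and H2-Eb1 from chr17:34305617-34305866 on the plus strand, with the Y box letters CTGATTGG in capitals.
H2-Aa: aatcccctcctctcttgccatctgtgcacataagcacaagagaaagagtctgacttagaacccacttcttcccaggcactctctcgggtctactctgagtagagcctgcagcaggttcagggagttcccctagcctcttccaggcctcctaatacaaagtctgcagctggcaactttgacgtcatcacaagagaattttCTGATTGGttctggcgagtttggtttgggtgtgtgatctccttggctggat
H2-Eb1: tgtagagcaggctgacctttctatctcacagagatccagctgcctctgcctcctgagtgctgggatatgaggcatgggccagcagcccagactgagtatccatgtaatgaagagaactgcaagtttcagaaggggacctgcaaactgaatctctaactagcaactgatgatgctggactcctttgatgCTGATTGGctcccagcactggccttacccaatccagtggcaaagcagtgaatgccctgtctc
Searched on both strands, CTGATTGG was found in 3.829% of all promoter windows of that length and in 4 of the 8 class II genes with a window (H2-Aa, H2-Eb1, H2-Eb2 and H2-Oa). The match is a description of the reference sequence, which is not that of either line. H2-Ea itself had no promoter window and was not searched.

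**Figure D2:**
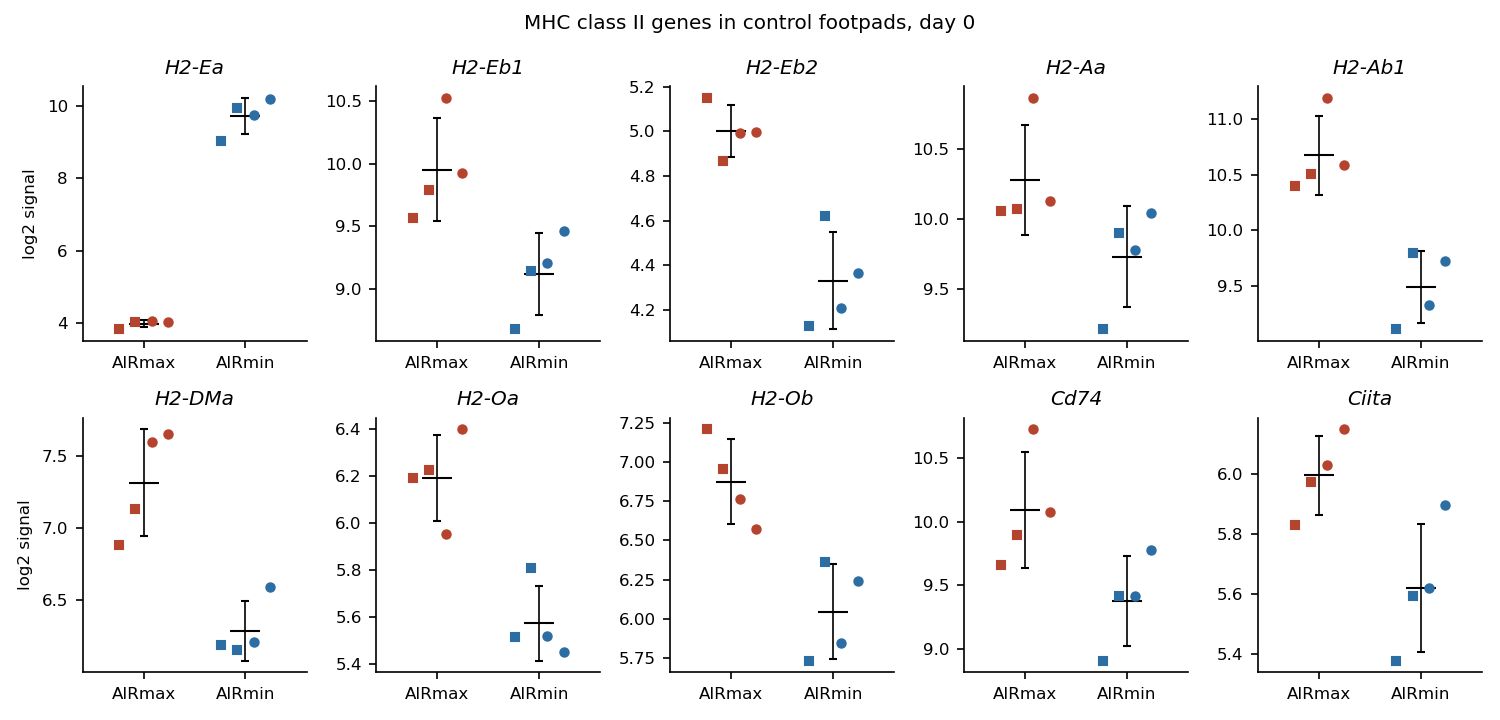
Log2 signal (vertical axis) of the 10 measured class II genes on the 4 AIRmax (red) and 4 AIRmin (blue) control arrays, males as squares and females as circles, with the mean and SD of each line. H2-Ea is near 4 in AIRmax and above 9 in AIRmin, and the other 9 genes have the higher mean in AIRmax.

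The largest positive difference belonged to the probe set annotated as Kcnma1, the pore subunit of the large-conductance calcium-activated potassium channel. It read 8.81, 9.89, 9.56 and 9.82 in AIRmax and 3.78, 3.02, 3.52 and 3.50 in AIRmin. The lines were far apart on every array, with a difference of 6.07 (SE 0.24, adjusted p = 6.74e-06). A second probe set annotated as Kcnma1 read 6.09, 6.30, 6.32 and 5.98 in AIRmax and 6.42, 6.23, 6.68 and 6.64 in AIRmin. That difference was -0.32 (SE 0.125, adjusted p = 0.253), so the 2 probe sets of the gene disagreed in direction and size. In the array's numbering, which follows the genome for most probe sets, 91.6% of annotated probe sets have neighbours from a single chromosome. The second Kcnma1 probe set lies between Gm10248 and Dlg5, the neighbours of the gene on chromosome 14. The first lies between Fanca and Dbndd1 of chromosome 8. The transcript that gave the difference of 6.07 is therefore uncertain, and it is called here only by its annotation.

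Pla2g2a, the secreted group IIA phospholipase A2, an acute phase enzyme that releases fatty acids from phospholipids and kills Gram-positive bacteria, was higher in AIRmax. It read 7.60, 7.88, 7.42 and 7.34 in AIRmax and 4.81, 4.92, 5.14 and 4.68 in AIRmin. The lowest AIRmax array was 2.20 above the highest AIRmin array, and the difference was 2.67 (SE 0.14, adjusted p = 3.83e-05), 6.37 times. The gene is known to be disrupted in some inbred strains, C57BL/6 among them. The 5 measured phospholipase genes beside it differed less and in both directions. Pla2g2d was higher in AIRmax by 0.65 and Pla2g5 by 0.45 without overlap, and Pla2g2e differed by -0.72 with overlap (adjusted p = 0.113, 0.207 and 0.216). Pla2g2f differed by -0.86 and Pla2g2c by -0.14, both with overlap (adjusted p = 0.223 and 0.535).

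Prkx, an X-linked protein kinase related to protein kinase A, had the smallest spread among the large differences. It read 8.04, 8.18, 8.07 and 8.01 in AIRmax and 6.40, 6.43, 6.24 and 6.18 in AIRmin. The difference of 1.76 (SE 0.09, adjusted p = 2.97e-05) was 1.69 in males and 1.83 in females. None of its 8 nearest measured neighbours differed by more than 0.14 in either direction. The gene model 1810037I17Rik read 6.35, 5.89, 5.75 and 5.83 in AIRmax and 4.31, 4.16, 3.82 and 3.77 in AIRmin, a difference of 1.94 (SE 0.17, adjusted p = 0.00211).

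Receptors of myeloid cells were among the genes higher in AIRmax. Tlr1, which pairs with Tlr2 to detect bacterial triacylated lipopeptides, read 5.51, 5.06, 5.33 and 5.61 in AIRmax and 4.18, 4.33, 4.14 and 4.15 in AIRmin. The lowest AIRmax array was 0.73 above the highest AIRmin array, with a difference of 1.18 (SE 0.12, adjusted p = 0.00942). Without AIRmin array 115 the adjusted p was 0.0529. Of the 22 genes of the Toll-like receptor list, 19 were measured, Tlr1 was the 1 called, and the median difference was 0.17. Without overlap 3 of the list were higher in AIRmax (5.39% of all genes) and none lower (4.94%). Tlr2, the partner of Tlr1, and the neighbouring gene Tlr6 did not pass the test. Tlr6 was higher without overlap by 0.69 (adjusted p = 0.207), while Tlr2 differed by 0.19 with overlap. Tlr4, the receptor of lipopolysaccharide, differed by 0.02.

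Cd300ld, an immunoglobulin-like receptor of myeloid cells, read 5.96, 5.92, 6.46 and 6.80 in AIRmax and 4.75, 4.76, 4.85 and 4.63 in AIRmin. The AIRmin arrays lay within 0.22 of one another, and the AIRmax females were above the AIRmax males. The difference was 1.54 (SE 0.18, adjusted p = 0.0186). Left out singly, 5 of the 8 arrays cost it the call, with an adjusted p of up to 0.0795 (without AIRmin array 114). Around it on chromosome 11, Cd300lf differed by 1.40, Cd300lb by 0.77 and Cd300c2 by 0.50, each without overlap and none called, whereas Cd300c and Cd300e differed by 0.01 and 0.00.

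Tpsab1, a tryptase stored in mast cell granules, was lower in AIRmax. It read 4.59, 4.40, 5.03 and 4.94 in AIRmax and 6.85, 7.42, 8.23 and 7.62 in AIRmin, a difference of -2.79 (SE 0.27, adjusted p = 0.00476), or 6.92 times higher in AIRmin. The gene is known to be defective in C57BL/6. The mast cell list as a whole did not follow. All 16 listed genes were measured, Tpsab1 was the 1 called, and the median difference was 0.05. Cpa3, the mast cell carboxypeptidase, differed by -0.17, the chymases Cma1 and Mcpt4 by -0.31 and -0.08, and Kit, the growth factor receptor of mast cells, by 0.00. Tpsb2, a neighbouring tryptase of similar sequence, differed by -0.58 with overlap (adjusted p = 0.238), and probes of such close copies may share transcript.

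Cd59a, a membrane protein that stops assembly of the complement membrane attack complex, was also lower in AIRmax. It read 6.62, 6.65, 6.58 and 6.62 in AIRmax, a range of 0.068, and 7.46, 7.77, 7.75 and 7.67 in AIRmin. The difference was -1.05 (SE 0.09, adjusted p = 0.00211). Its neighbouring copy Cd59b, known chiefly from testis, differed by -0.01. Of 26 measured complement genes of 29 listed, Cd59a was the 1 called and the median was -0.10. Without overlap 3 of them were lower and 1 was higher in AIRmax (4.94% and 5.39% of all genes). Vsig4, the complement receptor of resident macrophages, and Cfi, a protease that inactivates C3b and C4b, were lower without overlap by -1.03 and -0.52 but were not called, and C1qa differed by -0.13.

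Glo1 encodes glyoxalase 1, which detoxifies methylglyoxal with glutathione, and its copy number is known to vary among inbred strains. It read 8.78, 8.72, 8.66 and 8.25 in AIRmax and 9.54, 9.79, 9.89 and 9.58 in AIRmin, a difference of -1.09 (SE 0.14, adjusted p = 0.022). Its 2 probe sets gave -1.09 and -1.07, and in the array's numbering the second lies between Gsn and Dab2ip of chromosome 2, so that the transcript it reads is uncertain. The call was lost in 5 of 8 fits without 1 array, with an adjusted p of 0.0945 without AIRmin array 115. Of 30 measured glutathione and glyoxal genes of 33 listed, Glo1 was the 1 called, 6 were lower and 2 higher in AIRmax without overlap (4.94% and 5.39% of all genes), and the median was -0.12. Gsta4, a transferase that conjugates lipid aldehydes, differed by -1.03, and Gsr, which regenerates glutathione, by 1.21, both without overlap and uncalled.

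Smaller differences with a narrow spread completed the list. Man2a2, a Golgi mannosidase that trims N-glycans, read 7.59, 7.61, 7.67 and 7.66 in AIRmax and 7.04, 6.99, 6.97 and 7.02 in AIRmin. The difference was 0.63 (SE 0.07, adjusted p = 0.0105), and the range within a line was 0.083 in AIRmax and 0.071 in AIRmin. Opcml, a GPI-anchored cell adhesion protein best known from neurons, read 4.21, 4.29, 4.25 and 4.38 in AIRmax and 4.95, 5.15, 5.01 and 4.98 in AIRmin, a difference of -0.74 (SE 0.08, adjusted p = 0.0101). The call was lost in 3 of 8 fits without 1 array for Man2a2 and in 2 for Opcml. The adjusted p was highest without AIRmin array 115, at 0.0613 and 0.0529.

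The hydrolase-like genes Abhd1 and AAdacl4fm3 were higher in AIRmax. Abhd1 read 6.80, 6.98, 6.50 and 6.52 in AIRmax and 5.53, 5.51, 5.65 and 5.74 in AIRmin, a difference of 1.09 (SE 0.12, adjusted p = 0.0105) that was 1.37 in males and 0.81 in females. AAdacl4fm3, of the arylacetamide deacetylase-like family, read 6.92, 7.12, 7.09 and 6.93 in AIRmax and 6.09, 6.02, 6.10 and 5.65 in AIRmin, a difference of 1.05 (SE 0.12, adjusted p = 0.0105). Its neighbour Aadacl4 of the same family was 1.57 higher in AIRmax without overlap (adjusted p = 0.0532), and was called by SAM, with sex or muscle score as a covariate and without AIRmax array 108. Abhd1 lost the call in 3 of 8 fits without 1 array, with the highest adjusted p (0.0606) without AIRmin array 115. AAdacl4fm3 lost it in 2, with the highest adjusted p (0.0553) without AIRmin array 114.

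Zfp830, a zinc finger protein, read 6.47, 6.09, 6.47 and 6.59 in AIRmax and 5.32, 5.50, 5.54 and 5.08 in AIRmin, a difference of 1.04 (SE 0.14, adjusted p = 0.0345). Gm10590 read 5.47, 5.14, 5.31 and 5.28 in AIRmax and 6.23, 6.01, 6.18 and 5.90 in AIRmin, a difference of -0.78 (SE 0.11, adjusted p = 0.0418). It has 4 probe sets with the same value on every array, no position in the reference table, and may stand for several near-identical copies. These 2 genes had the highest adjusted p of the 16, and each call was lost in 7 of 8 fits without 1 array. The adjusted p then reached 0.102 for Zfp830 without AIRmax array 107 and 0.164 for Gm10590 without AIRmin array 115.

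**Figure D3:**
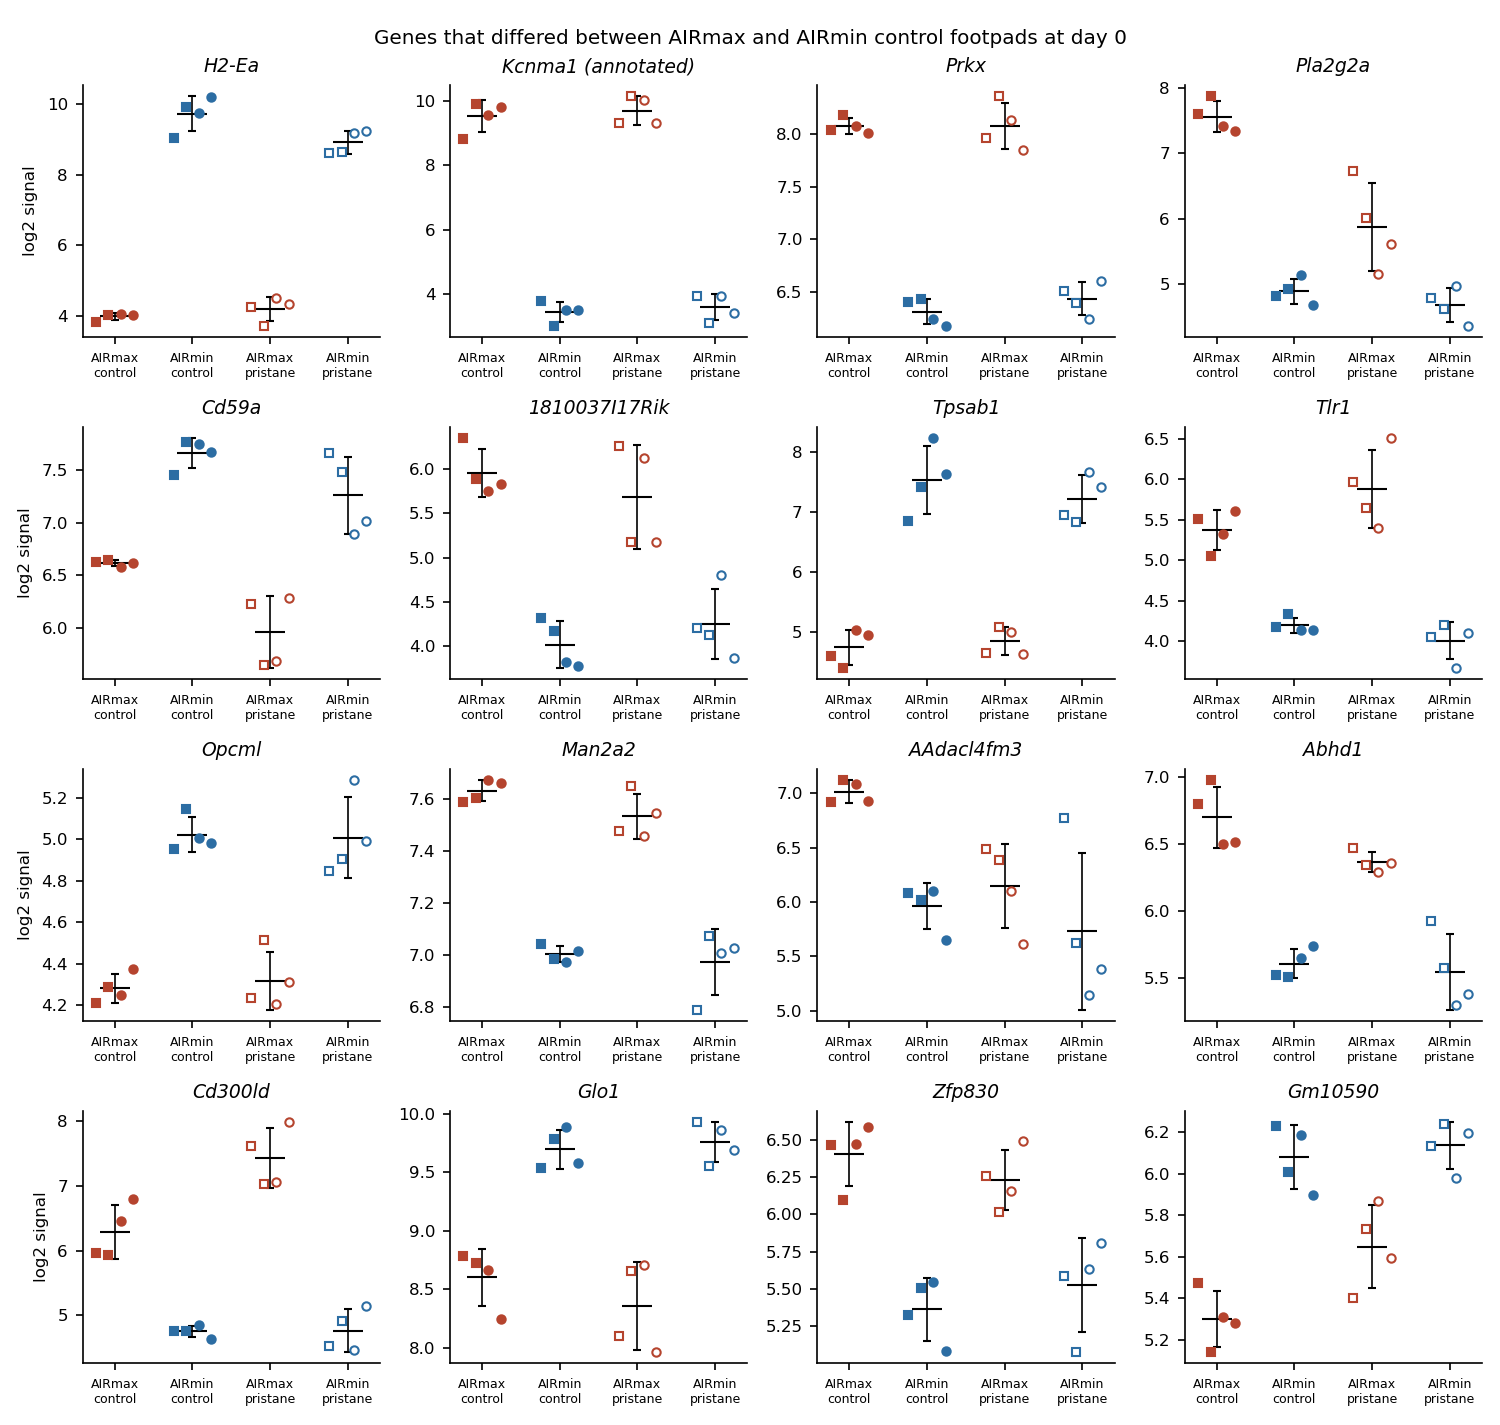
Log2 signal (vertical axes) of the 16 genes called at day 0 in the 4 groups, AIRmax in red and AIRmin in blue, control arrays filled and pristane arrays open, males as squares and females as circles, with mean and SD. In each panel the control arrays of the lines do not overlap, and in 15 panels the pristane arrays do not overlap either.

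The 8 pristane arrays of day 160 come from other mice of the same lines and share no array with the comparison above, so they can show whether the differences were found again. All 16 genes had the same sign there, 15 without overlap (10.8% of all genes were without overlap at day 160), and 11 of the 16 passed limma among the 271 genes called (1.36%). The 11 shared genes are 68.75% of the day 0 calls and 4.06% of the day 160 calls. H2-Ea differed by -4.71, the probe set annotated as Kcnma1 by 6.09, Prkx by 1.64, Tpsab1 by -2.37 and Glo1 by -1.40. The 5 genes that were not called were Pla2g2a at 1.19 (adjusted p = 0.0853), 1810037I17Rik at 1.44 (adjusted p = 0.0544), AAdacl4fm3 at 0.42 (adjusted p = 0.552), Zfp830 at 0.70 (adjusted p = 0.0772) and Gm10590 at -0.49 (adjusted p = 0.0838). In AIRmax, Pla2g2a read 6.73, 6.00, 5.15 and 5.61 on the pristane arrays, all below the 7.34 that was lowest on its control arrays. Over all genes 34 passed the test of whether the line difference changed from day 0 to day 160 (0.171%), and none of the 16 was among them (smallest adjusted p 0.126). That does not show that the differences were equal. The control and pristane arrays also differ in day, and may differ in age.

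**Figure D4:**
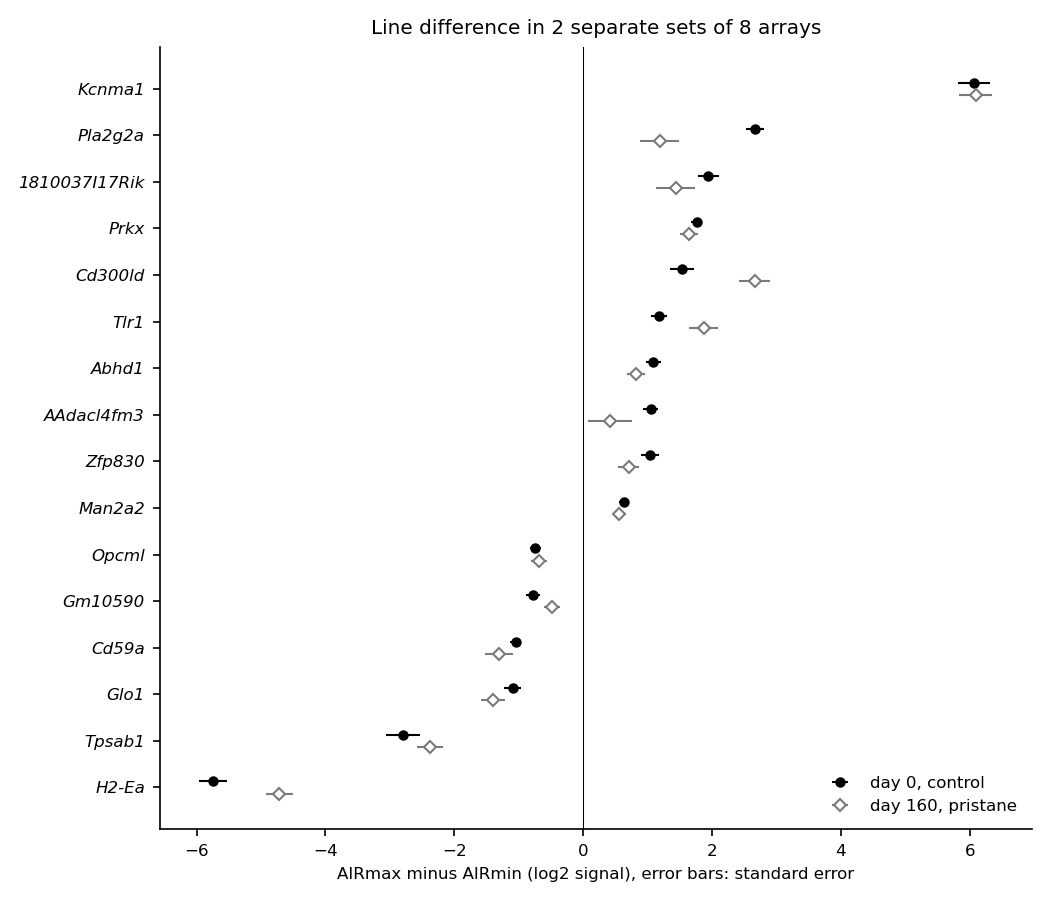
Line difference (horizontal axis, AIRmax minus AIRmin, log2 signal, with SE) of the 16 genes called at day 0, in the 8 control arrays (filled) and in the 8 pristane arrays (open). All 16 pairs fall on the same side of 0, with the Pla2g2a difference at 2.67 in control and 1.19 in pristane footpads.

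All 16 also had the same sign in males and in females. No gene passed the sex by line test among all 19938 by limma (0.0% called, smallest adjusted p 0.999789), also with a trended robust prior, and 422 genes had an unadjusted p under 0.05 (2.12%). With 2 arrays of each sex and line this test could find large differences only.

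Chromosome 17 held more of the 16 called genes than any other chromosome. Of the 15 with a position, 3 lay on chromosome 17 (H2-Ea, Tpsab1 and Glo1), which holds 936 of the 19938 genes measured. Chromosomes 4, 5 and 11 held 2 each, and chromosomes 2, 3, 7, 9, 14 and X held 1 each by annotation. No called gene lay next to another one. Of their 30 adjacent measured neighbours none was called and 1 differed at least 2-fold (Aadacl4, against 1.31% of all genes). Without overlap were 10 of the 30 neighbours, a larger share than the 10.3% of all genes. The median absolute difference was 0.18 in these neighbours, 0.13 in all genes and 1.14 in the called genes.

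The broadest shift without a call was in granulocyte genes. All 20 genes of the granulocyte precursor and neutrophil list had a higher mean in AIRmax, with a median difference of 1.81, 11 of them without overlap (5.39% of all genes were higher without overlap) and none called (smallest adjusted p 0.152). Elane read 9.68, 9.54, 9.78 and 11.69 in AIRmax and 7.37, 8.59, 6.63 and 9.03 in AIRmin, a difference of 2.27 (SE 0.60, adjusted p = 0.191). Ms4a3, a marker of granulocyte and monocyte progenitors, differed by 2.26 (SE 0.64, adjusted p = 0.205) and Mmp9, a gelatinase of neutrophil granules, by 1.80 (SE 0.41, adjusted p = 0.152). Within AIRmax Elane varied by 2.15 and Ms4a3 by 2.46, with AIRmax array 108 high and AIRmin array 115 low. The mean deviation of 6 precursor genes (Elane, Mpo, Prtn3, Ctsg, Ms4a3 and Fcnb) from their average over the 8 arrays was 0.54, 0.30, 0.63 and 2.59 in AIRmax and -1.55, -0.43, -2.24 and 0.17 in AIRmin, so that the lines were 0.12 apart at their nearest arrays. The same score over all 20 genes overlapped between the lines, at 0.35 to 2.09 in AIRmax and -2.26 to 0.44 in AIRmin. At day 160 the same 20 genes had a median difference of 1.28.

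Cell cycle and erythroid lists also had higher means in AIRmax, with array patterns that matched the granulocyte scores in part. All 29 measured cell cycle and DNA replication genes were higher in AIRmax by a median of 0.69, 9 of them without overlap (against the same 5.39%) and none called. Mcm6, a subunit of the replicative helicase, differed by 0.89 (adjusted p = 0.185) and Tpx2, a spindle assembly factor, by 0.78 (adjusted p = 0.209). All 10 measured erythroid genes of 19 listed were higher by a median of 0.99, none without overlap, with Ermap, an erythroid membrane protein, at 1.04 (adjusted p = 0.291). The cell cycle score was 0.52, -0.10, -0.11 and 1.05 in AIRmax and -0.29, -0.40, -0.57 and -0.10 in AIRmin. The erythroid score was 1.21, 0.22, -0.66 and 1.20 in AIRmax and -0.68, -0.10, -1.49 and 0.30 in AIRmin. AIRmin array 115 was lowest in both, as in the granulocyte score, whereas AIRmax arrays 105 to 107, level in granulocyte genes, were unequal here. Muscle genes ran slightly the other way, with a median of -0.16 over 30 genes. The muscle scores of the lines overlapped, at -0.53 to 0.06 in AIRmax and -0.82 to 0.62 in AIRmin. They were lowest on array 108 in AIRmax and on array 116 in AIRmin. Macrophage genes had a median of 0.06 over 19 genes, 1 of them without overlap (10.3% of all genes). Whether marrow or blood content of the samples takes part in these shifts was not tested.

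With the granulocyte precursor score as a covariate 6 genes were called, and these were H2-Ea, Kcnma1 (as annotated), Prkx, Pla2g2a, 1810037I17Rik and AAdacl4fm3. The other 10 kept their sign but not their call. Cd59a then differed by -1.07 (adjusted p = 0.0571) and Tpsab1 by -2.81 (adjusted p = 0.105), close to their values without the covariate. Tlr1 differed by 0.99 (adjusted p = 0.259), Cd300ld by 1.27 (adjusted p = 0.473) and Glo1 by -0.80 (adjusted p = 0.473). Since the score itself is higher in AIRmax, the covariate and the line share part of their variation, and this fit has fewer degrees of freedom.

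**Figure D5:**
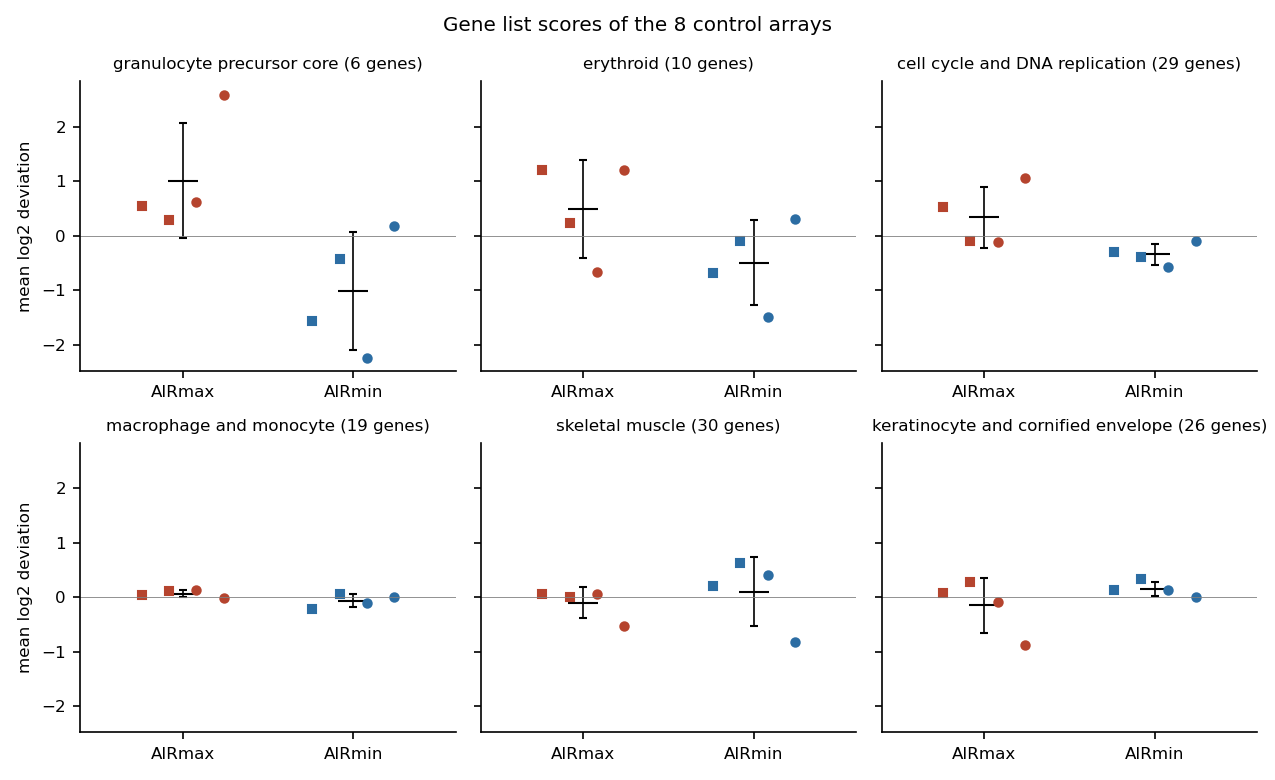
Score of 6 gene lists (vertical axis, mean log2 deviation of the genes from their average over the 8 control arrays) on each AIRmax (red) and AIRmin (blue) array, males as squares and females as circles, with mean and SD of each line. The granulocyte precursor core runs from -2.24 to 2.59, while macrophage scores stay near 0 on all 8 arrays.

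Of 23 measured C-type lectin and related receptors, 6 were higher in AIRmax without overlap (5.39% of all genes) and none lower (4.94%), with a median of 0.40. Clec7a, the beta-glucan receptor dectin-1, read 6.70, 6.52, 6.65 and 7.24 in AIRmax and 5.65, 6.12, 5.65 and 6.27 in AIRmin, a difference of 0.85 (adjusted p = 0.152). Clec4b1 differed by 0.80 (adjusted p = 0.0895). The CC chemokines and receptors were evenly split, with 15 of 28 positive, a median of 0.06 and none called. Without overlap 4 were higher and 1 was lower (5.39% and 4.94% of all genes). Ccl5, which attracts T cells and eosinophils, read 7.44, 7.95, 9.18 and 8.43 in AIRmax and 6.39, 6.54, 6.31 and 6.77 in AIRmin, a difference of 1.75 (SE 0.31, adjusted p = 0.0936). It was called by SAM and with all 16 arrays in 1 fit. It was higher in every AIRmax array, with a difference of 2.27 in females and 1.23 in males that did not pass the sex by line test. Ccr3, the eotaxin receptor of eosinophils, differed by 1.22 (adjusted p = 0.125). Of 24 CXC chemokines and receptors 16 were positive, with a median of 0.22. Among them 2 were higher and 1 lower without overlap (5.39% and 4.94% of all genes). The interferon gamma induced chemokines Cxcl9 and Cxcl10 differed by 1.12 and 0.78 without overlap (adjusted p = 0.125 and 0.185).

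Of 24 measured genes of the interleukin 1 family and inflammasome, 15 were positive and none was called, with a median of 0.24. Without overlap 6 were higher in AIRmax (5.39% of all genes) and 1 was lower (4.94%). Nlrp3, which senses crystals and membrane damage, read 4.69, 4.51, 4.66 and 4.81 in AIRmax and 3.91, 3.86, 3.92 and 4.42 in AIRmin, a difference of 0.64 (adjusted p = 0.133), called by SAM and without AIRmin array 116. Nlrp1c-ps, annotated as a pseudogene, differed by 0.80 (SE 0.11, adjusted p = 0.0513), and was called by SAM, with quantile normalization, with standardized arrays and with a trended robust prior. In MHC class I genes, 17 measured of 27 listed, the median was 0.35 and none was called. Without overlap 4 of them were higher in AIRmax (5.39% of all genes) and none lower (4.94%). Psmb10, a subunit of the immunoproteasome, was higher by 0.49 (adjusted p = 0.106) and H2-T24, a nonclassical class I gene, by 1.08 (adjusted p = 0.136), both without overlap. Vcam1, the endothelial adhesion molecule that binds leukocytes, differed by 1.09 (adjusted p = 0.127). It was the 1 gene without overlap (10.3% of all genes) among 19 endothelial genes, of which 12 were negative, with a median of -0.05.

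Some single uncalled genes were lower in AIRmax. Defb1, a constitutive epithelial defensin, read 5.88, 5.73, 5.51 and 5.47 in AIRmax and 6.60, 6.30, 6.67 and 6.07 in AIRmin, a difference of -0.76 (adjusted p = 0.113), in an acute phase and innate defence list with a median of 0.15 over 23 genes. Mmp28, a keratinocyte metalloproteinase, differed by -0.61 without overlap (adjusted p = 0.143), in a matrix metalloproteinase list with 10 of 23 positive and a median of -0.07. In that list 3 genes were lower and 4 higher without overlap (4.94% and 5.39% of all genes). The type I interferon stimulated genes had 24 of 28 positive and a median of 0.36, with none called. Against that direction Ifi44l differed by -1.18 (SE 0.30, adjusted p = 0.185) and was the 1 gene of the list without overlap (10.3% of all genes). Ifi203 differed by 1.29 with overlap (adjusted p = 0.187). Fc receptors and activating adaptors had 19 of 22 positive and a median of 0.48, with none called. Of these, 4 were higher in AIRmax without overlap (5.39% of all genes), and 1 was lower (4.94%), Trem2, a lipid-sensing macrophage receptor, at -0.41 (adjusted p = 0.215).

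Lymphocyte lists had medians above 0 and no called member. The medians were 0.33 over 20 measured T and NK cell genes and 0.34 over 19 B and plasma cell genes. Without overlap were 2 of the T and NK cell genes and 1 of the B and plasma cell genes, all higher in AIRmax. Over all genes 10.3% were without overlap, with 5.39% higher in AIRmax. Cd4, the coreceptor of helper T cells, differed by 0.33 (adjusted p = 0.205) and Cd8b1, of the coreceptor of cytotoxic T cells, by 0.62 (adjusted p = 0.185), both without overlap. Cr2, the complement receptor of B cells, differed by 0.54 without overlap (adjusted p = 0.203), and by -0.13 at day 160. Irf8, a transcription factor of dendritic cells and monocytes, differed by 0.64 (adjusted p = 0.206). Its dendritic and Langerhans cell list had 8 of 15 genes positive and a median of 0.08. Timd4, a receptor for phosphatidylserine on resident macrophages, read 6.75, 6.93, 6.99 and 6.60 in AIRmax and 5.89, 6.13, 6.45 and 5.99 in AIRmin, a difference of 0.70 (adjusted p = 0.111), called by SAM and without arrays 108 and 115. Folr2, of the same macrophage list, went the other way, by -0.55 with overlap (adjusted p = 0.216). Of the 19 macrophage genes 10 were positive.

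Structural lists had small negative medians and no called member. These were -0.26 over 26 keratinocyte and cornified envelope genes, -0.19 over 19 adipocyte genes, -0.22 over 15 Schwann cell and myelin genes and -0.13 over 30 collagen genes, beside -0.03 over all genes. Flg2, of the cornified envelope, read 7.80, 9.11, 8.79 and 8.07 in AIRmax and 9.26, 9.28, 8.96 and 8.96 in AIRmin. The AIRmax arrays were uneven and 1 of them lay among the AIRmin arrays, with a difference of -0.67 (adjusted p = 0.254). Tnnt1, the slow skeletal troponin T, differed by -0.74 with overlap (adjusted p = 0.251). Ngfr, a neurotrophin receptor of Schwann cells, differed by -0.39 (SE 0.08, adjusted p = 0.138). It was the 1 gene without overlap among the 15 Schwann cell and myelin genes (10.3% of all genes). Acp5, the osteoclast acid phosphatase, differed by 0.72 with overlap (adjusted p = 0.216).

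Of the 12 arthritis candidate genes that the study discusses, 11 were measured (Slc11a1 was not analysed here) and H2-Ea was the 1 called at day 0. SAM called 2 of the 11, H2-Ea and Cxcl9 (1.29% of all genes). Of the 11, 4 were without overlap (10.3% of all genes), namely H2-Ea, Cxcl9, Slc15a3 and Cxcl1. The gap between the nearest arrays of the lines was only 0.004 for Slc15a3 and 0.0009 for Cxcl1. Slc15a3, a lysosomal peptide transporter, differed by 0.69 (adjusted p = 0.214), while Cxcl9 is given above at 1.12. Saa3, an acute phase protein, read 4.19, 3.97, 3.72 and 4.67 in AIRmax and 4.17, 4.10, 3.63 and 4.06 in AIRmin, a difference of 0.15 (SE 0.20, adjusted p = 0.715). Msr1, a macrophage scavenger receptor, differed by 0.09 (SE 0.10, adjusted p = 0.652) and Hmox1, which degrades heme, by 0.44 (SE 0.31, adjusted p = 0.473). The B cell attractant Cxcl13 differed by 0.55 with overlap. The neutrophil attractant Cxcl1 was lower in AIRmax without overlap by -0.33 (adjusted p = 0.206), and Cxcl5 differed by 0.38 (adjusted p = 0.291). Il21r, the interleukin 21 receptor, differed by 0.18 and Bcl3, a cofactor of NF-kappa B, by 0.26, both with overlap (adjusted p = 0.521 and 0.404).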

How the data were processed

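Total RNA of footpads was hybridized to 16 Affymetrix Mouse Gene 1.0 ST arrays. The deposited log2 values, 1 per probe set and array, were made by the authors. The sample titles name RMA gene-level signal and the submitters' notes name MAS5, with no version of either and no genome build, and the values have the near-equal quartiles of RMA. They were used without further transformation. Of 35556 probe sets, 21789 named 1 gene, 1621 several and 12146 none, and the latter 2 kinds were left out. By Entrez number 21698 matched RefSeq, and 19938 genes were each represented by the probe set of highest mean over the 16 arrays (998 genes had more than 1).

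The 4 AIRmax and 4 AIRmin control arrays were compared with limma 3.58.1 in R 4.3.3 (lmFit, eBayes, two-sided), with Benjamini-Hochberg adjustment over all genes and a threshold of 0.05. Every p given comes from limma unless SAM is named. The same fit was run on the 8 day 160 arrays, and line by treatment and sex by line contrasts were fitted on 16 and 8 arrays. Groups without overlap have every array of a line above every array of the other. The score of a list averages, over its genes, the deviation from the gene's average on the 8 control arrays. The fits were tested on simulated data.

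The genes, lists and alternatives were chosen with earlier results of these data known, so lists are described by counts and medians without a test. Genes named by rule are all those called, in each list the called members or else the 2 with the smallest p, the study's 12 candidates, and Xist and the Y-linked genes. Other members and neighbours were named after their values were seen.

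Alternatives were the mean of probe sets, genes above the median signal, quantile normalization, standardized arrays, all 16 arrays in 1 fit, covariates of sex, granulocyte precursor score or muscle score, a trended robust prior, a 2-fold minimum, each array left out, and SAM (written anew, unpaired, all relabellings). Those without arrays 108 and 115 and with the other Kcnma1 probe set were chosen after seeing the data. Python 3.11.15, numpy 2.4.6, pandas 2.3.3 and matplotlib 3.10.9 made the tables and figures. Promoter and miRNA sequences are from RefSeq, GRCm38.p6.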

Additional observations from a re-analysis of the deposited data

Results flagged for a closer look

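An array standing apart from the other 3 of its line was looked for in 220 groups of 4 arrays (76 genes and 34 list scores), by the gap to the nearest array over the whole range and Dixon's critical value for 4. It was found in 15 of the 220. Chance alone gives about 1 in 20 groups, so the count is not far above chance and single flags may be chance. AIRmax array 108 stood high in Mmp9 (0.846), Elane (0.889) and Ms4a3 (0.839), and in the scores of acute phase and innate defence (0.889), granulocyte precursor and neutrophil (0.874), the granulocyte precursor core (0.856) and Fc receptors and activating adaptors (0.906). The same array stood low in the skeletal muscle score (0.891). These measures share genes or cells and are not independent of each other. The count of called genes without AIRmax array 108 was 19, and without it and AIRmin array 115 it was 17.

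In AIRmax, H2-Ea was low on array 105 (0.834) within a line range of 0.24, Cd207 of Langerhans cells was high on array 107 (0.908), and Cxcl1 was high on array 106 (0.953). In AIRmin, array 116 stood high in Nlrp3 (0.892), Plin4 of fat droplets (0.858) and Bcl3 (0.977), and array 113 stood low in Pmp22 of myelin (0.918).

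The line difference changed between day 0 and day 160 by the interaction test of limma for 4 of the genes named. It was larger in AIRmax at day 160 by 1.11 for Trem2, 2.98 for Cxcl5, 2.23 for Msr1 and 4.21 for Saa3 (adjusted p = 0.0345, 0.021, 0.000427 and 0.000147). Day 0 and control, and day 160 and pristane, cannot be told apart in this contrast, nor can any difference in age between the days.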

How the results depend on the processing

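Of the 16 genes called, H2-Ea, Kcnma1 as annotated, Prkx, Pla2g2a and 1810037I17Rik kept the call under each alternative that tested them, apart from the other Kcnma1 probe set, and 1810037I17Rik was below the signal filter. Of 313 values of called genes under alternatives 312 kept their direction. The count was 8 among genes above the median signal, 35 with all 16 arrays in 1 fit, 31 with sex and 6 with the granulocyte precursor score as a covariate, and 258 by SAM. Leaving out 1 array gave 9 to 19 calls, with 9 without AIRmin array 115, and 7 of the 16 genes kept the call in each of these fits. At day 160 all 16 arrays in 1 fit gave 1519 calls in place of 271. The causes were not tested.

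The exception in direction was the other Kcnma1 probe set at -0.32. Of 1178 values of the 60 other named genes, 1149 kept direction and side of the threshold, 21 passed it and 8 turned. Turned with the granulocyte score were Ermap (-0.081), Krt6a (0.36), Cxcl5 (-2.28e-06), Bcl3 (-0.10), Il21r (-0.10) and Saa3 (-0.31), and Saa3 turned without AIRmax array 108 (-0.029) and without it and AIRmin array 115 (-0.15), with a range of -0.029 to 0.29 over the fits without 1 array. No paired analysis was possible because the array numbers run through the whole series and no number is shared between groups. The number of arrays, 4 a line, limits all of these, and signals near background compress a difference.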

Other observations

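Further genes were chosen after their values were seen. Immediate early genes were lower in AIRmax control footpads. Of 18 such genes 17 had a negative difference, 9 without overlap (4.94% of all genes were lower without overlap) and none called, with a median of -0.38 at day 0 and 0.00 at day 160. Fos, a subunit of the AP-1 transcription factor, read 5.63, 6.21, 6.78 and 6.43 in AIRmax and 7.27, 7.99, 7.92 and 8.09 in AIRmin, a difference of -1.56 (SE 0.25, limma adjusted p = 0.0701). Dusp1, a phosphatase that switches off MAP kinases, differed by -1.29 (adjusted p = 0.0606), and Nr4a1, a nuclear receptor, by -0.91 (adjusted p = 0.145). Both Fos and Dusp1 were called by SAM, with sex as a covariate and with all 16 arrays in 1 fit, and Dusp1 also with standardized arrays. At day 160 Fos differed by 0.45 and Dusp1 by -0.39.

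The 3 precursors of the miR-23a cluster, which lie together on mouse chromosome 8, were lower in AIRmax without overlap and uncalled. Mir23a read 6.86, 6.91, 7.14 and 6.61 in AIRmax and 7.56, 7.93, 7.93 and 7.53 in AIRmin, a difference of -0.86 (adjusted p = 0.072), called with all 16 arrays in 1 fit. Mir27a differed by -0.83 (adjusted p = 0.0752) and Mir24-2 by -0.69 (adjusted p = 0.106), and at day 160 the values were -0.60, -0.66 and -0.43. SAM called all 3. The probes read the precursor transcript and not the mature miRNA. The mature 3p products, from RefSeq, are shown with the seed, bases 2 to 8, in capitals, and each of the 3 has a seed of its own.
miR-23a-3p: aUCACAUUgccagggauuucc
miR-27a-3p: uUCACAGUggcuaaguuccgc
miR-24-3p: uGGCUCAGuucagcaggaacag

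Ly6a2, of the Ly6 family of GPI-anchored proteins, had the largest difference of any uncalled gene. It read 9.53, 9.35, 9.90 and 11.32 in AIRmax and 5.23, 7.89, 4.05 and 4.68 in AIRmin, a difference of 4.56 (SE 0.77, adjusted p = 0.0754). AIRmin array 114 stood above the other 3 of its line, and the gene was called without it and by SAM. Gbp2b, an interferon gamma induced GTPase, read 6.11, 5.84, 7.66 and 6.97 in AIRmax and 4.40, 4.13, 4.27 and 4.31 in AIRmin, a difference of 2.37 (SE 0.34, adjusted p = 0.0521) and 1.89 at day 160. It was called with quantile normalization, standardized arrays, all 16 arrays in 1 fit or sex as a covariate, by SAM, and without AIRmax array 106 or 107. Krtap6-2, a keratin-associated protein of hair, read 7.42, 6.44, 4.72 and 3.19 in AIRmax and 9.40, 8.98, 6.42 and 6.72 in AIRmin, with the males above the females in each line, and was called with sex as a covariate.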
